A study of Mus musculus with 10 samples.

Results

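Gata1, Gata2, Klf1, Zfpm1, Gfi1b, Nfe2, Tal1, Lmo2 and Fli1 encode transcription regulators of the red cell and platelet lineages. They were taken by symbol from the deposited table, which held all 9 among its 12791 genes. The study sorted lineage-negative, c-Kit-positive, Sca-1-negative hematopoietic progenitors from the bone marrow of C57BL/6 mice and sequenced their RNA in bulk. Its 10 libraries form 3 groups. The naive group has 3 libraries from mice without a tumor, and the labels state neither a genotype nor a KDR sort for it. The KDR-negative group has 4 libraries and the KDR-positive group has 3, both from mice that carried GL261, a mouse glioma line, at week 4. The series describes implantation into mice with GFP knocked into Kdr, the gene of a receptor for vascular endothelial growth factor, and about 20000 GFP-positive cells per extraction. A GFP gate follows the reporter and not the receptor protein, and 1 tumor line stands for glioma here. No label ties libraries to separate mice, so the spread behind the authors' p-values may be technical.

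The table gives 2 comparisons between groups that its header leaves unnamed, called here the first and the second. A positive log2 fold change means that a gene was higher in what is called the numerator group. The derived levels of the denominator group differed between the comparisons by a median of 0.0087 (log2), against 0.070 or more for any other pairing of sides, so both comparisons are taken to share that group. Which labelled group stands on which side could not be read from the table. Values per library and sequencing depth were not analysed here. The standard errors below are those implied by the authors' p-values under a normal approximation, and group levels in CPM (read counts scaled to library size) are derived from the deposited mean and fold change. CPM carry no stated scaling to transcript length, so levels are compared between groups and not between genes.

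Blood progenitors that can make red cells also make megakaryocytes, the cells that shed platelets, and a shared set of nuclear proteins acts in both. GATA1 and GATA2 are zinc finger proteins that bind GATA motifs, and GATA1 takes over sites held by GATA2 as red cells mature. FOG1, the product of Zfpm1, binds GATA1 and is needed for both lineages. TAL1 binds E boxes with an E protein and is joined to GATA factors by LMO2 and LDB1. KLF1 binds CACCC boxes of red cell genes, FLI1 is an ETS protein of megakaryocyte genes, and the pair is known for opposing each other where the lineages part. GFI1B is a repressor that recruits histone-modifying enzymes, and NFE2 pairs with small MAF proteins to drive globin and platelet genes.

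Promoters of 4 members are shown because their letters touch on how these factors are known to regulate each other's genes. Klf1, Gfi1b and Tal1 are the 3 members with GATA letters in a window, and none of them passed in the first comparison. Zfpm1 was higher there and its window holds none. Gata1 and Gata2 did not pass either, hold no GATA letters and are not shown, nor is another window of Tal1 without them. The choice follows the letters, so it shows no link between GATA letters and a call. Each run is the 250 bases before a transcription start in RefSeq, build GRCm38.p6, on the strand of the gene. The Zfpm1 window lies at chr8:122281891-122282140 on the plus strand, Klf1 at chr8:84901732-84901981 on the plus strand, Gfi1b at chr2:28621983-28622232 on the minus strand and Tal1 at chr4:115056176-115056425 on the plus strand. Capitals mark GATA with A or T before it and A or G after it, and CACCC, each on either strand.
Zfpm1: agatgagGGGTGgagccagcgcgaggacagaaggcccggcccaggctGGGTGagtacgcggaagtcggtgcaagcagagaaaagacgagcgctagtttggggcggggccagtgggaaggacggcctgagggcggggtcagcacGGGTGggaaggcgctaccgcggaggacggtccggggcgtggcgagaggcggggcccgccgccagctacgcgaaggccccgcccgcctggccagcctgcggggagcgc
Klf1: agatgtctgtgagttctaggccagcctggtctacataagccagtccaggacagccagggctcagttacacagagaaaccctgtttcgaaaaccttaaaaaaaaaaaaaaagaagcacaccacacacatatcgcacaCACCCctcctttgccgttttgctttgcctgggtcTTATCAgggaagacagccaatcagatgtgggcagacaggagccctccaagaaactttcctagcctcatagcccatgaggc
Gfi1b: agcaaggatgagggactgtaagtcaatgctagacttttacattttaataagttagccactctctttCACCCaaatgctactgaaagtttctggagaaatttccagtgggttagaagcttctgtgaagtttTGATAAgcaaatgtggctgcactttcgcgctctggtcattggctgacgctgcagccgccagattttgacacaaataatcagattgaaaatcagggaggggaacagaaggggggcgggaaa
Tal1: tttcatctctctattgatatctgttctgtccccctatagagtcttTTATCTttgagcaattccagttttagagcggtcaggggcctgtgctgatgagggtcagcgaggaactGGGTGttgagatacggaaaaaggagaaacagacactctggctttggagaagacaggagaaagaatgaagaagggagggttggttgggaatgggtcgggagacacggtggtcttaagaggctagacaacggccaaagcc

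The RefSeq table matched 6 of the 9 members with 8 windows, 2 each for Tal1 and Gata2. GATA letters stood in a window of 3 members, beginning 80 bases before the start of Klf1, 120 before that of Gfi1b and 205 before that of Tal1. Among all 32851 windows, 26.5% hold them. The windows of Zfpm1, Gata1 and Gata2 hold none. CACCC occurred in a window of all 6 members, 3 times before Zfpm1, and in 52.0% of all windows. The other window of Tal1 holds neither GATA letters nor CACCC, and the other window of Gata2 holds no CACCC. Members are counted here if any of their windows matches, while the shares are per window, so these are unlike measures. E boxes (CANNTG) were found before Gata1, Gfi1b and Klf1, and in 66.2% of all windows. The ETS letters searched (GGAA after CC or CA) stood only before Gata1 among the 6, against 35.1% of all windows, and the core shared by NFE2 and AP-1 proteins (TGANTCA) before none of them, against 6.75% of all windows. All were searched on both strands, and none of these motifs contains another. Matches are letters in a window and were not measured as bound sites.

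In the first comparison 4 of the 9 genes, Zfpm1, Lmo2, Fli1 and Nfe2, were higher in the numerator group at an adjusted p under 0.05 on the deposited scale, and none was lower. Among all 12791 genes 22.3% were called, 18.8% higher and 3.49% lower. The median log2 fold change of the 9 was 0.57, against -0.13 over all genes. The folds ran from 0.791 for Klf1 to 2.58 for Zfpm1, a span of 1.71 on the log2 scale, with implied standard errors between 0.27 and 0.39. These directions belong to the deposited scale, on which the derived levels of all genes sum to 2080931 CPM in the numerator group and 747908 CPM in the denominator group. The first sum is above what the CPM of a single library can reach, so these are not plain CPM, and the scaling behind them is not stated. With the log2 ratio of those totals, 1.48, removed from every gene, all 9 genes lie below 0, and so does every gene named below with a positive value under 1.48. On the deposited scale fold changes rose with level, so each member is also set beside the median of all genes within 0.5 log2 CPM of its mean. By that measure 4 members lie above the median and 5 below it.

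**Figure D1:**
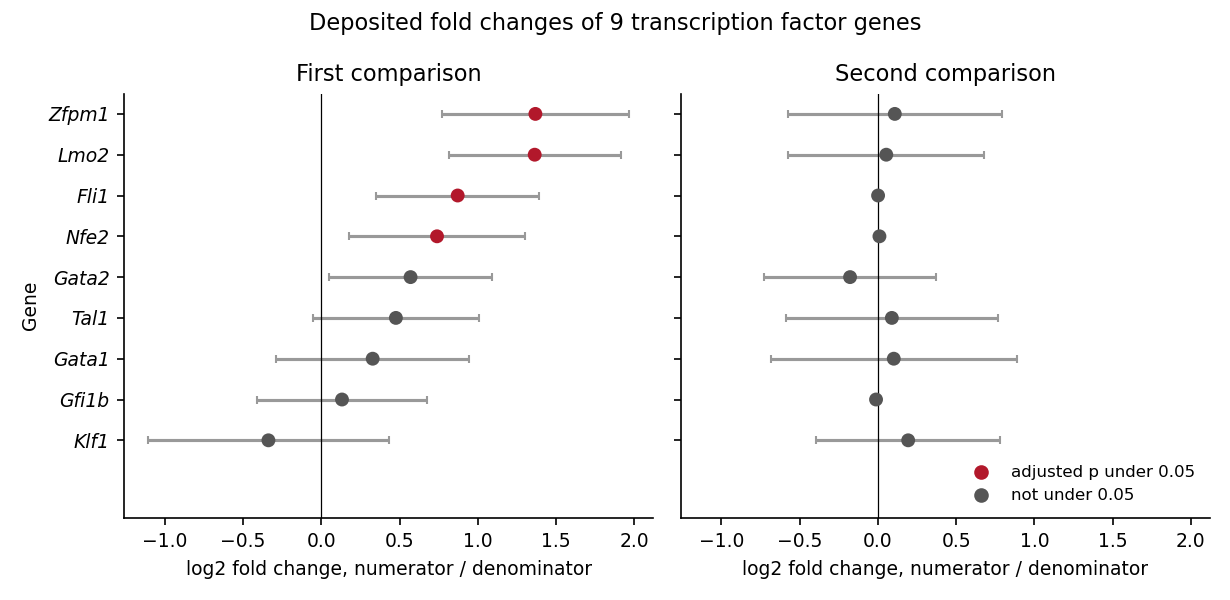
Log2 fold changes of the 9 genes from the authors' deposited table, with genes on the vertical axis and 1 panel per comparison; bars are 95% intervals implied by the authors' p-values under a normal approximation, left out where p was 0.9 or more. Zfpm1, Lmo2, Fli1 and Nfe2, in red, passed an adjusted p of 0.05 in the first comparison and lie below 0 once the ratio of group totals, 1.48, is removed, while in the second all 9 points lie between -0.18 and 0.19.

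The GATA factors and their cofactor differed in size. Zfpm1 had a derived level of 128 CPM in the numerator group and 49.5 CPM in the denominator group. Its log2 fold change in the authors' deposited table was 1.37 ± 0.31 (implied SE, adjusted p = 7.1e-05), and genes of like level had a median of 0.75. Among those genes 49.8% were called higher, and Zfpm1 stood at percentile 83.9 of them. Gata2, which keeps early progenitors in their immature state, had derived levels of 74.5 and 50.1 CPM. It did not pass, at 0.57 ± 0.27 on the log2 scale (adjusted p = 0.116) in the authors' deposited table. Gata1, the master regulator of red cell genes, had 72.4 and 57.7 CPM. Its log2 fold change in the authors' deposited table was 0.33 ± 0.31 (adjusted p = 0.532), with an interval from -0.29 to 0.94. Against genes of like level Gata2 lay 0.17 above the median and Gata1 0.10 below it. The fold changes of Gata2 and Gata1 differed by 0.24, less than the implied error of either, and this difference was not tested.

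Of Lmo2 and Tal1, whose products act in the same complex, Lmo2 passed and Tal1 did not. Lmo2 had derived levels of 252 CPM in the numerator group and 97.8 CPM in the denominator group. Its log2 fold change was 1.36 ± 0.28 (adjusted p = 1.2e-05) by the authors' deposited table, and its p was the smallest among the 9. At its level, however, 96.8% of 472 genes were called higher and the median was 1.49, so Lmo2 lies 0.13 below genes like it. Tal1 had 57.1 and 41.0 CPM. With a log2 fold change of 0.48 ± 0.27 (adjusted p = 0.222) in the authors' deposited table, it lay 0.29 above the median of genes of like level.

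Fli1 and Klf1 stood on either side of their neighbours in level. Fli1 had derived levels of 62.8 CPM in the numerator group and 34.3 CPM in the denominator group. The authors' deposited table gives it a log2 fold change of 0.87 ± 0.27 (adjusted p = 0.0061). Only 16.9% of the 2260 genes of like level were called higher, and Fli1 stood at percentile 86.3 of them, 0.69 above their median. Klf1 was the 1 member with a negative value, at 47.2 and 59.6 CPM. In the authors' deposited table its log2 fold change was -0.34 ± 0.39 (adjusted p = 0.627), with an interval from -1.11 to 0.43. It stood at percentile 6.10 of genes of like level, 0.60 below their median. With the ratio of totals removed it lies at -1.81 and is called lower. The fold changes of Fli1 and Klf1 lay 1.21 apart, a difference that was not tested because values per library were not analysed.

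Nfe2 passed narrowly and Gfi1b did not pass. Nfe2 had derived levels of 122 CPM in the numerator group and 73.0 CPM in the denominator group. Its log2 fold change in the authors' deposited table was 0.74 ± 0.29 (adjusted p = 0.046), 0.12 below the median of genes of like level, of which 59.4% were called higher. Gfi1b had 63.3 and 57.7 CPM. The log2 fold change in the authors' deposited table was 0.13 ± 0.28 (adjusted p = 0.834), 0.24 below genes of like level.

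**Figure D2:**
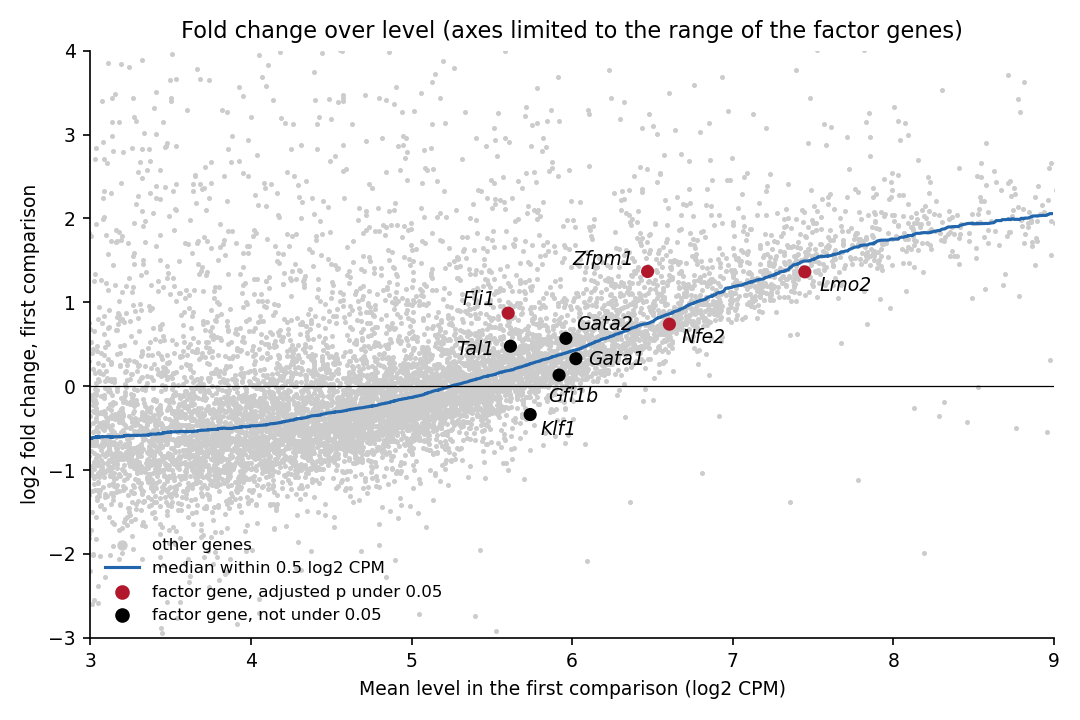
Log2 fold change of the first comparison (vertical axis) against mean level in log2 CPM (horizontal axis), with other genes in grey, the median of genes within 0.5 log2 CPM as a blue line and the 9 factor genes named, in red where the adjusted p was under 0.05; the axes are limited to a range around the factor genes. Fli1 lies 0.69 and Zfpm1 0.62 above the line, Lmo2 and Nfe2 lie 0.13 and 0.12 below it, and Klf1 lies 0.60 below it.

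The call of a member above its neighbours depended on how level was measured. When the median of genes of like mean level was subtracted and the implied errors were kept, none of the 9 passed, with adjusted p-values of 0.082 for Fli1 and 0.269 for Zfpm1 (normal approximation, Benjamini-Hochberg), and 2 of the 9 had an unadjusted p under 0.05. A gene that is higher in the numerator group also has a higher mean. An added measure therefore took the level from the denominator group of the second comparison. By it Zfpm1 lay 1.17 (adjusted p = 0.0014) and Fli1 1.004 (adjusted p = 0.0016) above genes of like level and both passed with the errors implied by the authors' p-values, while Lmo2 at 0.18 and Nfe2 at 0.06 did not. Klf1 lay 0.73 below and did not pass. This measure was added after seeing the data. Its level is not independent of the fold change either, because both comparisons are taken to share the denominator group. An error that lowers the denominator level raises the fold change and lowers the level used for matching. Whether Zfpm1 and Fli1 lie above genes of like level when level is measured independently of the fold change was not tested.

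In the second comparison none of the 9 genes passed, where 0.109% of all genes did, 0.0704% higher and 0.0391% lower. None had an unadjusted p under 0.05 either, and the smallest was 0.517, for Klf1. The log2 fold changes in the authors' deposited table ran from -0.18 for Gata2 to 0.19 for Klf1, with a median of 0.05 against 0.00 over all genes. Those of Gata1 and Zfpm1 were 0.10 and 0.11 in the authors' deposited table, that of Tal1 was 0.09 and that of Lmo2 was 0.05. Gfi1b at -0.01, Nfe2 at 0.01 and Fli1 at 0.0017 in the authors' deposited table were closest to 0. For the 6 genes whose p allowed an implied error, the widest 95% interval was that of Gata1, from -0.68 to 0.89 on the log2 scale, and that of Gata2 ran from -0.72 to 0.37. Genes of like level varied little here. Klf1 stood at percentile 98.5 of them and Gata2 at percentile 2.09.

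Levels of the numerator group of the second comparison stayed close to those of the shared denominator group. Klf1 was at 68.3 CPM there and Gata2 at 44.0 CPM. Zfpm1 was at 53.7, Lmo2 at 102, Nfe2 at 73.7, Gata1 at 62.0, Gfi1b at 57.0, Tal1 at 44.0 and Fli1 at 34.7 CPM. The 2 comparisons share their denominator, so they are no independent views of the genes. Subtracting 1 from the other gives the log2 difference between the numerator groups, which has no test. It was 1.31 for Lmo2, 1.26 for Zfpm1, 0.87 for Fli1, 0.75 for Gata2, 0.73 for Nfe2, 0.39 for Tal1, 0.23 for Gata1, 0.14 for Gfi1b and -0.53 for Klf1.

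**Figure D3:**
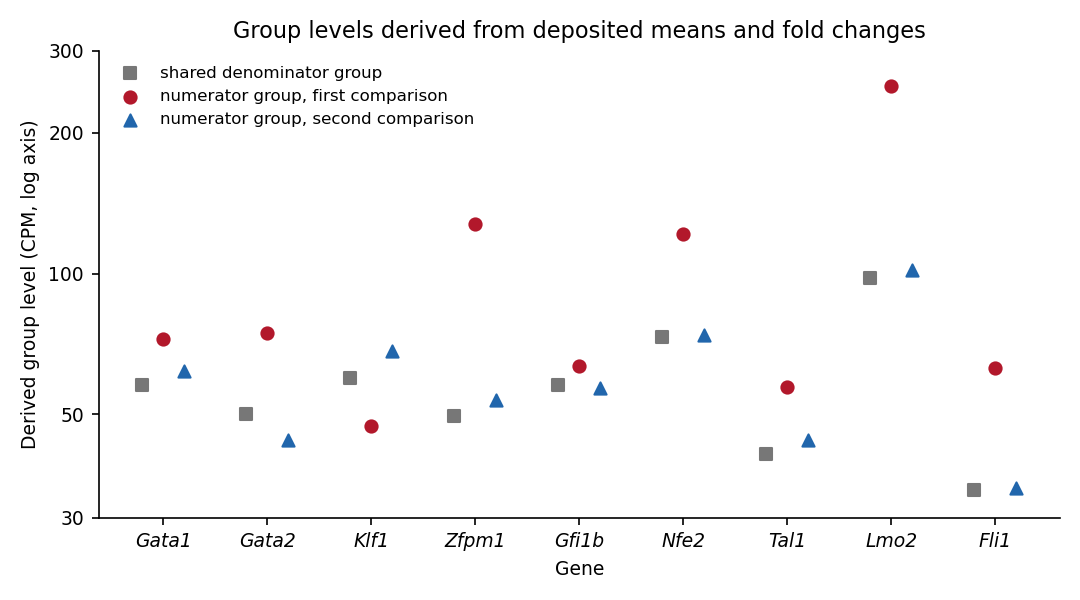
Derived levels in CPM on a log axis for each of the 9 genes (horizontal axis) in the shared denominator group and in the numerator groups of the 2 comparisons; each symbol is a group value without an error. The first numerator group holds the highest of the 3 levels for 8 of the 9 genes, as for Lmo2 at 252 CPM, and the lowest for Klf1 at 47.2 CPM.

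Proteins that work with these factors showed no common direction in the first comparison. Their counts stand beside 18.8% of all genes called higher and 3.49% called lower. Of 12 measured LDB1 complex and E protein partners 1 was higher and none lower, and the median log2 fold change was -0.22. That gene was Ssbp4, an LDB1-binding protein, with 1.19 (adjusted p = 0.00033) in the authors' deposited table. Ldb1 itself, the scaffold of the complex, stood at 0.72 (adjusted p = 0.057), Cbfa2t3, the ETO2 corepressor, at -0.69 (adjusted p = 0.214) and the E protein gene Tcf4 at -0.89 (adjusted p = 0.199) in the authors' deposited table. Of 13 corepressor and remodeling genes 4 were higher and 2 lower, with a median of 0.45. The histone deacetylase gene Hdac1 at 1.64 and the histone-binding genes Rbbp7 at 1.30 and Rbbp4 at 1.03 were higher and Gatad2b, of the NuRD complex, lower at -1.31 in the authors' deposited table. The others to pass, named after their values were seen, were Mbd3, also of NuRD, at 0.82 and Gfi1, the paralog of Gfi1b, at -0.83 in the authors' deposited table. Less the ratio of totals the median of these genes turns to -1.03. Against genes of like level Hdac1 lay 0.10 and Rbbp7 0.11 below the median, Rbbp4 0.63 above it and Gatad2b 0.89 below it.

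None of 7 measured partners and relatives of NFE2 passed, and their median was 0.08. For this list and those that follow, the shares over all genes were 18.8% higher and 3.49% lower. Mafg, a small MAF partner, stood at -0.38, Nfe2l1 at 0.41, and Bach1 at 0.37 and Bach2 at -1.59, both repressors at the same kind of site, in the authors' deposited table. Of 9 measured ETS genes other than Fli1, 3 were lower, none was higher and 6 did not pass, with a median of -0.58. Erg, a close relative of Fli1, stood at -1.49 (adjusted p = 0.00012), Ets1 at -1.80 (adjusted p = 0.0043) and Elk3 at -1.08 (adjusted p = 0.026) in the authors' deposited table, and Elf4 at -0.58 did not pass. Erg lay 1.29 below genes of like level, where Fli1 lay 0.69 above, and with the ratio of totals removed Fli1 itself lies at -0.60. Of 17 other regulators of the lineages 1 was higher and 2 lower, with a median of -0.33. Mef2c, a factor of megakaryocytes and lymphoid cells, stood at 0.81, Bcl11a, a repressor of embryonic globins, at -0.92, and Foxo3, which guards red cell precursors against oxidants, at -1.17 in the authors' deposited table, while E2f2 at -0.98 did not pass.

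Lists called here target genes hold known targets and markers of each lineage. They were chosen with earlier results of these data known, so their counts are descriptions. Regulation of these genes by the 9 factors was not tested. Over all genes 18.8% were called higher and 3.49% lower. Of 24 measured megakaryocyte target genes 23 were higher and none lower in the first comparison, and their median log2 fold change, 2.52, stands 1.94 above genes of like level. The smallest p in the authors' deposited table were those of the platelet chemokine gene Pf4 at 3.43, the tetraspanin gene Cd9 at 3.16, the platelet granule receptor gene Treml1 at 3.16 and Gp1bb, part of the receptor for von Willebrand factor, at 3.63. Thbs1 at 0.33 (adjusted p = 0.854) in the authors' deposited table was the 1 gene that did not pass, named after its value was seen. With the ratio of totals removed 21 of the 24 stay above 0. Summed over the list, derived levels were 2962 CPM in the numerator group and 456 CPM in the denominator group. Of 36 measured erythroid target genes 8 were higher and 9 lower, with a median of -0.11. Less genes of like level their median was -0.33, and with the ratio of totals removed 5 of the 36 stay above 0. Their summed derived levels were 29953 CPM in the numerator group and 2935 CPM in the denominator group. Hba-a1 alone had 15101 and 967 CPM there, and Hbb-b2 had 11413 and 385 CPM. The 4 globin genes led, from 3.33 for Hbb-b1 and 3.71 for Hba-a2 to 3.97 for Hba-a1 and 4.89 for Hbb-b2 by the authors' deposited table, and near-identical copies make the split between them uncertain. Among the other 4 higher genes, named after their values were seen, were the heme synthesis gene Alas2 at 2.97 and the carbonic anhydrase genes Car2 at 1.37 and Car1 at 1.16 in the authors' deposited table. The 9 lower genes, named after their values were seen, lay between -0.87 for Cldn13 and -1.42 for Ank1 in the authors' deposited table, and included the surface genes Rhag, Rhd, Kel and Ermap beside Add2 and Tspan33. In the second comparison no gene of either list passed. All 24 megakaryocyte genes had negative values there, with a median of -0.39, and 33 of 36 erythroid genes had positive ones, with a median of 0.17. Most genes at the level of Nfe2 had positive values, since its 0.010 stood at percentile 20.4 of them. At the lower level of Fli1 its 0.0017 stood at percentile 35.9. Many genes of both lists lie at lower levels, so neither percentile is a background for them. Neither list was set beside genes of like level in the second comparison, so these signs are not read as shifts of a lineage.

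**Figure D4:**
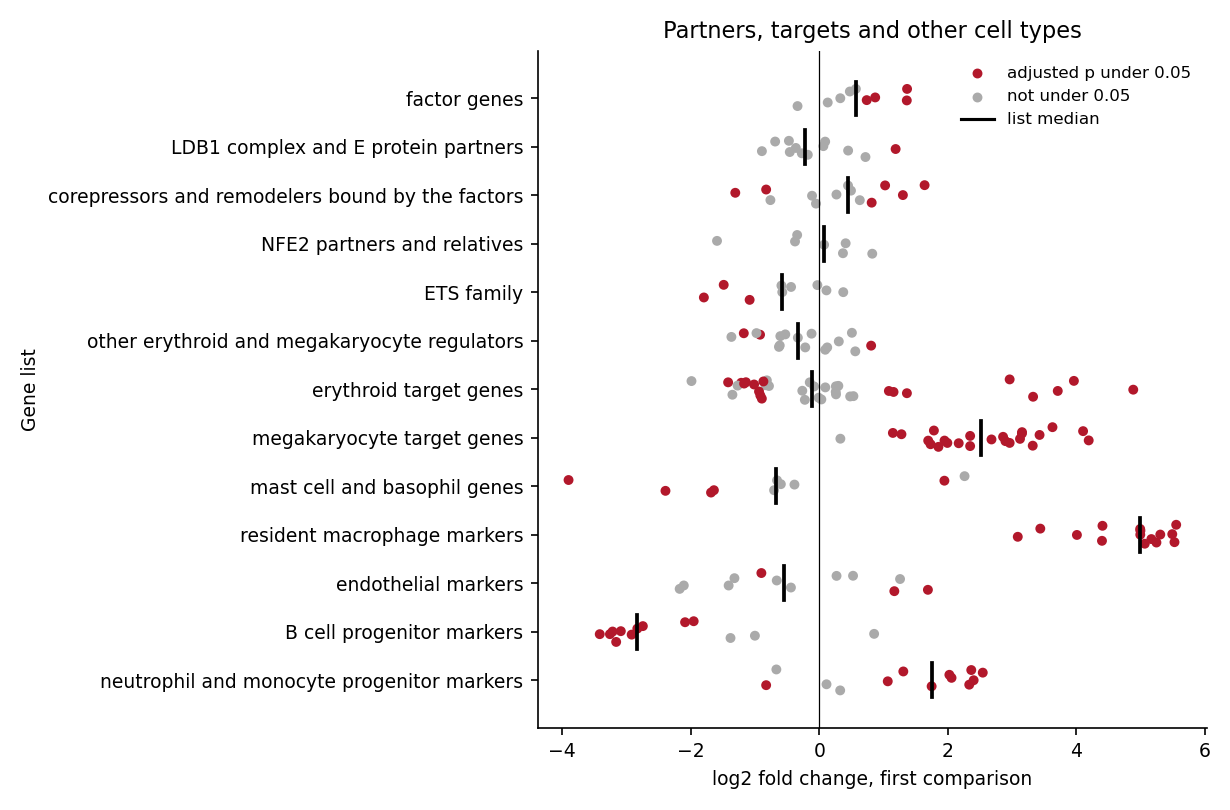
Log2 fold changes of the first comparison (horizontal axis) for the 9 factor genes and 12 lists of partners, targets and markers (vertical axis); each point is a gene, red where the adjusted p was under 0.05, and black strokes are list medians. The factor genes, with a median of 0.57 that turns to -0.91 once the ratio of totals is removed, lie between megakaryocyte target genes at 2.52 and erythroid target genes at -0.11. So do neutrophil and monocyte progenitor markers at 1.75, corepressors and remodelers at 0.45 and NFE2 partners and relatives at 0.08.

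Markers of some other cells also differed in the first comparison, and their part in the values of the 9 genes was not tested. In a bulk sample fewer cells of a type and less RNA per cell cannot be told apart. Of 15 resident macrophage markers all 15 were higher, with a median of 5.001, and their summed level was 4545 CPM against 204 CPM in the denominator group and 109 CPM in the second numerator group. The smallest p among them in the authors' deposited table were those of the complement genes C1qa at 5.001, C1qb at 4.999 and C1qc at 5.07 and of the mannose receptor gene Mrc1 at 5.25, and C1qa was also lower in the second comparison, at -2.41 (adjusted p = 0.020). Endothelial cells use Fli1, Tal1, Lmo2 and Gata2 too. Of 12 endothelial markers 2 were higher and 1 lower, with a median of -0.55 and summed levels of 181 and 186 CPM. Over all genes 18.8% were called higher and 3.49% lower, so 2 of 12 is near the share of higher genes. Esam at 1.69 and Tie1 at 1.17 were higher, Egfl7 was lower at -0.90, and Plvap at -2.17 (adjusted p = 0.056) did not pass, all in the authors' deposited table. A derived level cannot be 0 by the way it is computed, so these levels do not show that a marker was detected. The lowest of either list was 0.193 CPM, for a macrophage marker in the second numerator group.

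Of 13 B cell progenitor markers 10 were lower and none higher, with a median of -2.83 and a summed level of 248 CPM against 659 CPM. Among all genes 18.8% were called higher and 3.49% lower. Dntt at -2.92, Igll1 at -2.75 and Vpreb3 at -1.95 were among them in the authors' deposited table. Of 13 neutrophil and monocyte progenitor markers 9 were higher and 1 lower, with a median of 1.75 and summed levels of 3458 and 976 CPM. That median stands at 0.36 less genes of like level and at 0.27 less the ratio of totals, where 7 of the 13 stay above 0. The smallest p in the authors' deposited table were those of the granule enzyme genes Elane at 2.37, Prtn3 at 2.34, Mpo at 2.40 and Ctsg at 2.03, and the 1 lower gene was Gfi1. Mast cells and basophils depend on Gata2, and 4 of 10 of their genes were lower and 1 higher, with a median of -0.68. The mast cell protease gene Cpa3 at -1.68, the receptor chain gene Ms4a2 at -2.39 and Gzmb at -3.90 were lower, as was the IgE receptor gene Fcer1a at -1.64, named after its value was seen, and Srgn, a granule proteoglycan gene of many blood cells, was higher at 1.95 in the authors' deposited table. Of the genes behind the sort, Kit stood at -0.60 (adjusted p = 0.128), Ly6a at 0.43 (adjusted p = 0.402) and Kdr at 1.26 (adjusted p = 0.617) in the authors' deposited table.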

How the data were processed

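Per the labels' protocols, 0.1 ug of total RNA went into each TruSeq library. Bowtie 0.12.2 and mm8 appear in the submitters' processing notes without their roles. The counting program, annotation and test program were all not given in the sources used here. Per the file headers, the authors deposited a log fold change and a mean log CPM for each gene and comparison, read here as log2 values because the denominator levels of the comparisons matched more closely under base 2 (median difference 0.0087) than under base e (0.018) or 10 (0.178). The authors deposited p-values with adjusted values, which equal a Benjamini-Hochberg adjustment recomputed from them. The groups given by the labels could not be tied to the columns. Tests planned for values per library were not run, and the authors' tests stand in their place.

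Group levels were derived with equal weights for both sides of a comparison. A standard error was implied as the size of the fold change over the normal z of its p, where p was under 0.9. For other genes the median error of genes of like level was used in the rescaled tests. The functions were tested on simulated data (Python 3.11.15, numpy 2.4.6, scipy 1.17.1, pandas 2.3.3). A gene was called at an adjusted p under 0.05 over all 12791 genes. Named genes are the 9 members, the 4 genes of smallest p in each list and the genes of the sort, beside those said to be chosen after their values were seen. Some genes that the rule names are not reported here. The members and lists were chosen with earlier results of these data known. Promoters are from RefSeq (GRCm38.p6), matched by symbol, and their coordinates are not those of mm8. In GENCODE M21 no exon of another gene overlaps an exon of a member.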

Additional observations from a re-analysis of the deposited data

How the results depend on the processing

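Of the first comparison, 4 members were called as deposited. The count was 3 at an adjusted p under 0.01 (without Nfe2), 4 at 0.1, 4 among genes of at least 3 log2 CPM, 5 with the median of all genes removed (Gata2 added) and 1, Lmo2, under Bonferroni. It was 0 less the median of genes of like mean level and 2 less that of like denominator level, an alternative added after seeing the data. Less the log2 ratio of totals, 7 members were called and all 7 lay lower. Over all genes 2401 were called higher and 446 lower as deposited, 1231 and 77 under Bonferroni, 1153 and 217 less genes of like mean level, 1542 and 330 less genes of like denominator level, and 556 and 7822 less the ratio of totals. On that last scale the values were -1.15 for Gata1, -0.91 for Gata2, -0.11 for Zfpm1, -1.34 for Gfi1b, -0.74 for Nfe2, -0.999 for Tal1, -0.11 for Lmo2, -0.60 for Fli1 and -1.81 for Klf1. All but Zfpm1 and Lmo2 were called lower there. Less genes of like mean level, Gata1 turned to -0.10, Gfi1b to -0.24, Nfe2 to -0.12 and Lmo2 to -0.13, and by denominator level Gata1 turned to -0.031 and Gfi1b to -0.22. In the second comparison no setting called a member. Signs turned there for Gfi1b at 0.023 less the ratio of totals, and for Nfe2 at -0.048, Lmo2 at -0.0024 and Fli1 at -0.026 less genes of like level. With unequal weights for the group sizes the shared denominator levels differed by a median of 0.031 and 0.047 (log2). The causes of these changes were not tested. No paired analysis was possible because the table holds no column per library, and for the same reason libraries could not be left out in turn and depth could not be examined.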

Other observations

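The share of genes called higher in the first comparison rose with the mean level up to 8 log2 CPM. It was 8.29% of 2147 genes at 3 to 4 log2 CPM, where the median log2 fold change was -0.54, 16.1% of 2396 genes at 5 to 6, 51.6% of 1189 genes at 6 to 7 and 97.0% of 460 genes at 7 to 8, where the median was 1.51. Among those 460 genes 1.09% were called lower. The share higher then fell, to 90.2% of 193 genes at 8 to 9 and 87.7% of 106 genes at 9 to 10. Those called lower made up 4.66% and 5.66% there. Among them, named after their values were seen, were the small nucleolar RNA genes Snora61 and Snord34 and the microRNA gene Mir3091. Their log2 fold changes in the authors' deposited table were -13.57, -13.48 and -11.86. What lay behind such large differences between the groups was not tested. Of the 9 factor genes Lmo2 lies between 7 and 8, Zfpm1, Nfe2 and Gata1 lie between 6 and 7, and the other 5 lie between 5 and 6.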
